A study of Rattus rattus with 18 samples.

Results

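The microRNAs (miRNAs) described here were rno-miR-149-3p, rno-miR-762, rno-miR-3473 and rno-miR-6215, together with rno-miR-149-5p, the other arm of the miR-149 hairpin. The first 4 were chosen by their values in rats with transient middle cerebral artery occlusion (tMCAO), in which they stood far above sham-operated rats in the ischemic core and not in the tissue around it (peri), whereas rno-miR-149-5p was added as the partner strand. They are 5 of the 761 miRNAs on the array and all 5 belonged to the 532 that were tested. Brain tissue came from 9 Sprague Dawley rats, 3 with sham surgery, 3 with tMCAO and 3 whose labels name remote limb postconditioning (PostC). Each rat gave 1 core and 1 peri array, so 18 arrays were compared in 6 groups of 3. In tMCAO a filament closes the artery that feeds much of the hemisphere and is then withdrawn. In remote limb postconditioning the blood flow of a limb is interrupted in short cycles after the injury. The description of the PostC samples joins both names without saying whether these rats also had tMCAO, the age of the rats is not given in the sources used here, and it is not stated which of the study's times of sacrifice after reperfusion applies to the arrays. The region names are those of the samples, since the labels and the paper assign different brain areas to them.

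A miRNA is cut from a hairpin precursor whose 2 strands, named 5p and 3p, can each be loaded into an Argonaute protein. The loaded strand pairs with messenger RNAs mainly through its seed, bases 2 to 8, and lowers their translation and stability. In many hairpins one strand is kept and the other is degraded, so that both arms of a precursor need not move together. In humans the miR-149 gene lies within an intron of GPC1, the gene of the proteoglycan glypican-1, and miR-149-3p has been studied as a regulator of the kinase AKT1 in tumor cells. Focal ischemia is known to be followed in the core by loss of neurons and by entry of leukocytes, both of which change the mix of miRNAs in a piece of tissue.

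The array probes are complementary to the sequences below, which are shown because the composition of these targets bears on how the results compare with those of other probes. Capitals mark the seed.
rno-miR-149-3p: gGGACGGGggcggugcug
rno-miR-149-5p: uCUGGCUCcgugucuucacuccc
rno-miR-762: gCGGGGCUagggccggga
rno-miR-3473: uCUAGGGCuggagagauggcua
rno-miR-6215: uUUAGGGUugcagagccagg
No other miRNA on the array shared the seed of any of the 5. rno-miR-149-3p and rno-miR-762 were short, at 18 bases each, and were the targets of highest GC content among the miRNAs tested, at 83.3% each compared with a median of 50%. The GC content was 54.5% for rno-miR-3473, 55% for rno-miR-6215 and 60.9% for rno-miR-149-5p. Guanine made up 66.7% of rno-miR-149-3p, 61.1% of rno-miR-762, 40.9% of rno-miR-3473 and 40% of rno-miR-6215, compared with 17.4% of rno-miR-149-5p and a median of 23.8% over the array. The 5 letters UAGGG occurred in 3 of the 4 targets, at bases 3 to 7 of rno-miR-3473 and of rno-miR-6215 and at bases 8 to 12 of rno-miR-762. These letters were looked for after the sequences had been seen, and they were present in 14 of the 761 targets on the array (1.84%, read on the target strand only). The longer run CUAGGGC was common to rno-miR-762, rno-miR-3473 and rno-miR-324-5p, of which the last had a tMCAO minus sham difference in core of 0.12 on the log2 scale.

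The arrays detected between 188 and 605 miRNAs, that is, miRNAs whose median spot exceeded the empty spots of the same array by 3 times their scaled median absolute deviation. This limit lay between 49.1 and 566.1 intensity units, so a miRNA could be measured at a lower level on some arrays than on others. Of the 4 brain markers, miR-128-3p, miR-124-3p, miR-9a-5p and miR-138-5p, all were detected on 18 of 18 arrays, whereas the liver marker miR-122-5p was detected on 1. The core array of sham rat 2 stood apart in a control, since a mismatch control spot read 32538 units there, compared with 829.1 units at most on the other 17 arrays. PostC core arrays correlated with each other at r = 0.83 to 0.93 over the miRNAs tested, and sham peri arrays at 0.96 to 0.98. Levels are given below as normalized log2 intensity, on which a difference of 1 is a doubling, and they may be compared between groups but not between miRNAs. In tissue pieces, a change in the share of a cell type and a change of the miRNA per cell cannot be told apart.

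rno-miR-149-3p showed the largest tMCAO minus sham difference in core of the 532 miRNAs. Its level in core was 8.46, 10.44 and 8.57 in sham rats 1 to 3, 12.03, 12.81 and 12.62 in tMCAO rats and 12.90, 11.36 and 13.01 in PostC rats. Every tMCAO and PostC core array was above every sham core array, and sham rat 2 was the highest of its group. In peri the level was 7.36, 8.12 and 8.16 in sham rats, 8.42, 8.21 and 8.58 in tMCAO rats and 9.05, 8.77 and 7.92 in PostC rats. The peri spots exceeded the detection limit in 3 of 3 sham rats, 1 of 3 tMCAO rats and 2 of 3 PostC rats. The group means in core were 9.16 ± 1.11 in sham, 12.49 ± 0.40 in tMCAO and 12.42 ± 0.92 in PostC (SD, n = 3). The tMCAO core mean was thus 10.1-fold above sham (log2 difference 3.33), a value that helped to choose this miRNA and is given without a test. With plain background subtraction in place of the fitted one the log2 difference was 4.16, and without sham rat 2, whose core array stood apart, it was 3.97. The raw medians of the 4 spots, before any normalization, were 399 to 1403 units in sham core and 3565 to 5946 units in tMCAO core.

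rno-miR-149-5p, cut from the same hairpin, did not share this pattern. Its level in core was 10.32, 10.04 and 10.18 in sham rats, 10.17, 10.21 and 9.95 in tMCAO rats and 8.95, 9.66 and 10.35 in PostC rats. In peri it was 9.85, 10.40 and 9.70 in sham rats, 9.37, 10.89 and 9.87 in tMCAO rats and 10.13, 9.85 and 10.85 in PostC rats. The 6 groups overlapped, and the spots exceeded the limit on all 18 arrays. The tMCAO minus sham difference was -0.07 in core and 0.06 in peri on the log2 scale, the former at place 275 of 532 from the highest. Neither has a settled sign, since the core value was 0.28 with plain background subtraction and 0.17 with quantile normalization, and the peri value -1.13 with median scaling (-0.71 less the median of all miRNAs). Whereas the 3p arm ran from 7.36 to 13.01 over the 18 arrays, the 5p arm stayed between 8.95 and 10.89.

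rno-miR-762 had the second largest tMCAO minus sham difference in core. Its level there was 8.34, 9.26 and 8.71 in sham rats, 11.08, 11.63 and 12.76 in tMCAO rats and 11.53, 10.85 and 12.36 in PostC rats. As with rno-miR-149-3p, the sham core arrays lay below all tMCAO and PostC core arrays. In peri the level was 7.45, 7.91 and 7.37 in sham rats, 8.30, 8.22 and 8.36 in tMCAO rats and 8.86, 8.98 and 7.97 in PostC rats. No tMCAO peri array exceeded the limit, so the tMCAO peri level is only bounded from above. The tMCAO core mean was 8.29-fold above sham core (log2 difference 3.05, no test), and at least 9.91-fold above tMCAO peri. This bound sets the mean of the core arrays against the lowest signal detected on each peri array, or against the probe's own value where that was higher.

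rno-miR-3473 differed from the GC-rich pair in that its sham core arrays lay close together. Its level in core was 10.36, 10.22 and 10.55 in sham rats, 12.79, 13.83 and 12.78 in tMCAO rats and 13.25, 10.73 and 13.11 in PostC rats. PostC rat 2 lay just above the sham arrays, whereas PostC rats 1 and 3 fell within the tMCAO range. In peri the level was 9.05, 9.16 and 8.29 in sham rats, 7.86, 8.40 and 8.26 in tMCAO rats and 10.12, 10.19 and 8.05 in PostC rats. Again no tMCAO peri array exceeded the limit, whereas all sham peri arrays did. The limit was 345.5 and 337.8 units on the peri arrays of tMCAO rats 2 and 3, and 84.9, 171.0 and 131.0 units on those of sham. The tMCAO core mean was 6.76-fold above sham core (log2 difference 2.76, no test) and at least 27.1-fold above tMCAO peri. The sham peri mean was at least 1.38-fold above that of tMCAO peri, but the groups overlapped, with sham rat 3 inside the tMCAO range.

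rno-miR-6215 was detected on all 18 arrays, so both of its regions could be measured. Its level in core was 11.16, 12.66 and 11.26 in sham rats, 14.73, 14.89 and 14.29 in tMCAO rats and 14.93, 12.76 and 14.54 in PostC rats. As for rno-miR-149-3p, sham rat 2 was the highest of the sham rats and PostC rat 2 the lowest of the PostC rats. In peri the level was 11.10, 11.69 and 11.25 in sham rats, 8.91, 10.73 and 10.83 in tMCAO rats and 12.01, 11.83 and 9.51 in PostC rats. The tMCAO arrays were above sham in core, by 7.70-fold (log2 difference 2.94), and below sham in peri, at 0.437 of the sham mean (log2 difference -1.19), with no overlap in either region and no test in either. The size in peri rested on tMCAO rat 1, without which the log2 difference was -0.57.

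**Figure D1:**
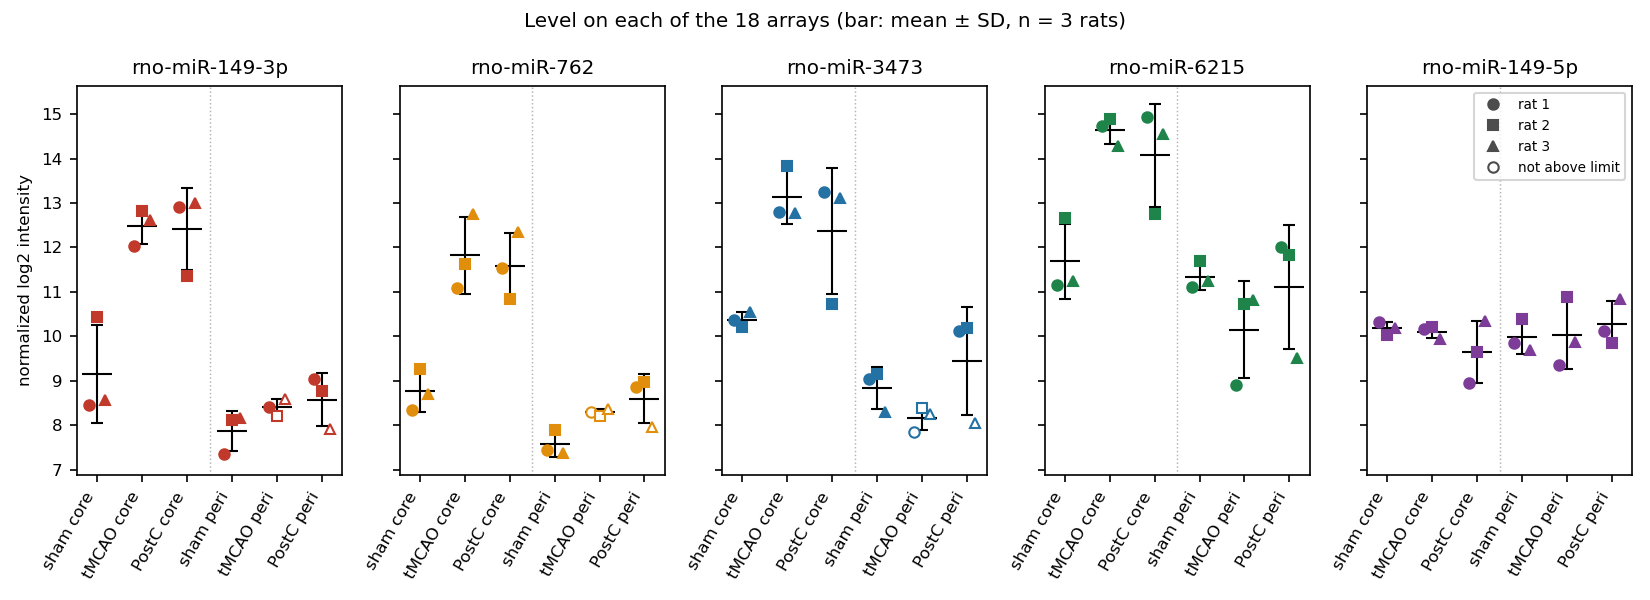
Normalized log2 intensity of the 5 miRNAs on each of the 18 arrays, with the mean ± SD of each group (n = 3 rats); marker shapes give the rat number and open markers lie at or below the detection limit. In core the tMCAO and PostC arrays of the first 4 panels sit above all sham arrays, whereas rno-miR-149-5p stays between 8.95 and 10.89 in all groups.

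In the comparison that chose them, the 4 miRNAs took places 1 to 4 of 532 in the tMCAO minus sham difference in core, in the order rno-miR-149-3p, rno-miR-762, rno-miR-6215 and rno-miR-3473. The miRNA at place 5 was miR-1224, with a log2 difference of 2.58, compared with 2.76 for rno-miR-3473. All 4 were above sham without overlap, as were 16.7% of all miRNAs tested, and nothing is read from this count. In peri, 83 miRNAs (15.6%) were above sham without overlap and 85 (16.0%) below. rno-miR-149-3p and rno-miR-762 were among the former, with log2 differences of 0.53 and 0.72, and rno-miR-6215 among the latter. For the first pair the tMCAO peri spots were mostly under the detection limit, and the sign of the difference turned with plain background subtraction and with median scaling (for rno-miR-149-3p with the deposited normalized intensities too), so that no direction is given for them in peri. For rno-miR-6215 the peri difference lay between -2.13 (median scaling) and -0.57 (without tMCAO rat 1) in the alternatives that changed its value.

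The PostC arrays took no part in the choice, so core against peri within the PostC rats asks whether the same regional difference was present in animals the choice did not use. In these rats rno-miR-149-3p, rno-miR-762, rno-miR-6215 and rno-miR-3473 held places 1 to 4 of 532, and each was higher in core than in peri in 3 of 3 rats, but none passed the test. The places depended on the processing, since in the order given they were 4, 5, 8 and 7 with the deposited normalized intensities, 2, 4, 16 and 8 with plain background subtraction and 1, 5, 2 and 3 when a linear trend with the GC content of the targets was taken out of each array (GC trend removed). The core minus peri difference of rno-miR-149-3p was 3.85, 2.59 and 5.09 in rats 1 to 3, a mean of 3.84 (standard error 0.64, 95% interval 2.41 to 5.28, adjusted p = 0.0994 in limma). That of rno-miR-762 was 2.68, 1.87 and 4.39, a mean of 2.98 (standard error 0.60, adjusted p = 0.140 in limma). Rat 2 gave the smallest difference and rat 3 the largest for both, and in rat 3 the peri spots of both, and of rno-miR-3473, were under the limit. The rat 3 differences of these miRNAs, and the means that include them, are therefore not exact.

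That of rno-miR-6215 was 2.91, 0.93 and 5.04, a mean of 2.96 (standard error 0.79, adjusted p = 0.399 in limma). That of rno-miR-3473 was 3.13, 0.54 and 5.06, a mean of 2.91 (standard error 0.79, adjusted p = 0.399 in limma). Their rats were spread over more than 4 log2 units, in the same order as for the GC-rich pair. The standard errors rest on a spread estimate shared with the sham and tMCAO rats. For these miRNAs they may therefore be too small for the PostC rats. In limma on the PostC rats alone the adjusted p was 0.970 for each of the 4. rno-miR-149-5p went the other way, with -1.17, -0.19 and -0.50, a mean of -0.62 (standard error 0.31, adjusted p = 0.498 in limma).

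Over all 532 miRNAs limma called 0 (0%) in this comparison, with 52 at an unadjusted p under 0.05, and the methods' t-test called 21 at an unadjusted p under 0.05 and 1 after adjustment. A difference above 0 in all 3 rats was found for 59 miRNAs (11.1%) and one below 0 in all 3 for 54 (10.2%). The call depended on PostC rat 2: without its 2 arrays the 4 miRNAs had log2 differences of 4.47, 3.53, 3.97 and 4.09, in the order above, each with an adjusted p of 0.0346 in limma, among 18 miRNAs called. They also passed when both regions were fitted at once with the rat as a random block, with adjusted p = 0.00125, 0.00211, 0.0496 and 0.0365 in limma, among 6 miRNAs called. That fit assumes 1 correlation between the regions of a rat for all 9 rats, whereas over the miRNAs tested the deviations of core and peri from their group means correlated at r = -0.51 to -0.36 in the PostC rats and at 0.16 to 0.49 in the sham rats, so its p-values for the PostC rats may be too small. The core array of PostC rat 2 had the highest detection limit, 566.1 units.

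**Figure D2:**
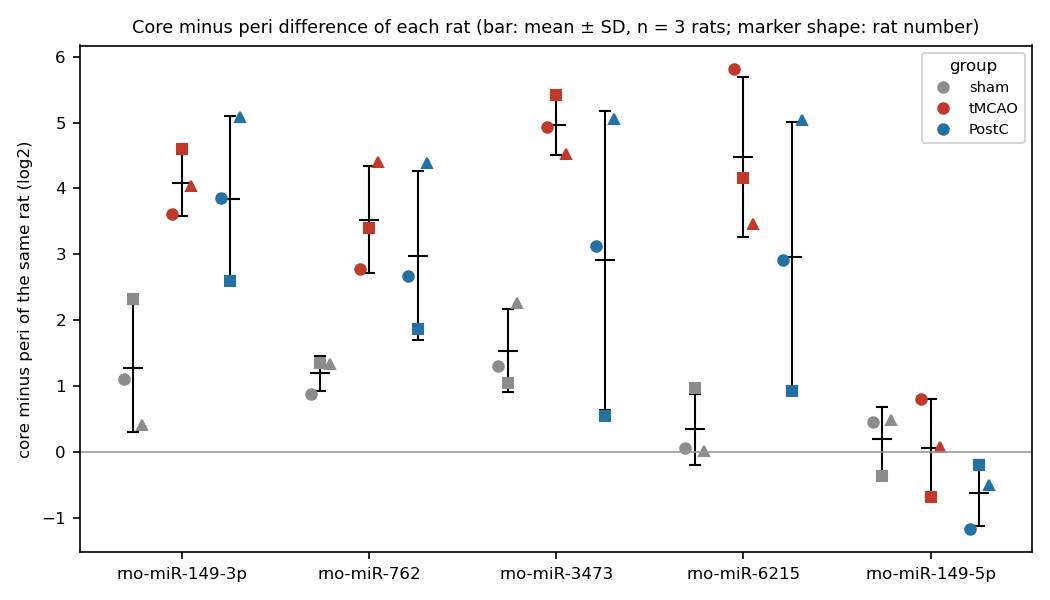
Core minus peri difference of normalized log2 intensity for each rat, with the mean ± SD of each group (n = 3 rats) and marker shapes for the rat number. PostC rat 2 lies lowest and PostC rat 3 highest for each of the first 4 miRNAs, and the PostC rats lie below 0 for rno-miR-149-5p.

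The same difference within the tMCAO rats, which the choice did use, was 4.08 for rno-miR-149-3p, whose peri spots exceeded the limit in 1 of these rats, and 4.48 for rno-miR-6215, and above 0 in 3 of 3 rats for all 4 miRNAs, as for 19.0% of all miRNAs. The sham rats gave 1.28 for rno-miR-149-3p, 1.19 for rno-miR-762, 1.54 for rno-miR-3473 and 0.34 for rno-miR-6215. Each of the 4 was higher in core than in peri in 3 of 3 sham rats, as were 21.8% of all miRNAs tested. For rno-miR-6215 the rats gave 0.05, 0.97 and 0.01, so that its mean rested on sham rat 2, the rat with the bright mismatch control in core. Without that rat the mean was 0.033 for rno-miR-6215, 0.76 for rno-miR-149-3p, 1.11 for rno-miR-762 and 1.78 for rno-miR-3473.

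PostC was then set beside sham in each region. The sham arrays helped to choose the 4 miRNAs, so their differences from sham are descriptions, and no p-value of the 4 is read. In core rno-miR-149-3p differed by 3.27 (standard error 0.60, 9.63-fold) and rno-miR-762 by 2.81 (standard error 0.53, 7.02-fold). With the GC trend removed these were 2.40 and 1.95. The difference was 2.39 for rno-miR-6215 (standard error 0.55) and 1.99 for rno-miR-3473 (standard error 0.61). rno-miR-149-5p differed by -0.53 with overlapping groups. The 4 miRNAs were above sham without overlap, as were 58 of the 532 (10.9%), and nothing is read from this count. Over all 532 miRNAs limma called 0 (0%), with 90 at an unadjusted p under 0.05 and 0 after adjustment by the methods' t-test. Without PostC rat 2 the differences of the 4 were 3.80, 3.18, 3.04 and 2.80 in the order given, and without sham rat 2, the rat with the bright mismatch control, that of rno-miR-149-3p was 3.91.

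In peri the PostC minus sham differences were smaller. They were 0.70 for rno-miR-149-3p, 1.03 for rno-miR-762, 0.62 for rno-miR-3473, -0.23 for rno-miR-6215 and 0.29 for rno-miR-149-5p. Their sizes rested on single rats and on the scale, since without PostC rat 3 the first 3 were 1.03, 1.34 and 1.32, and with median scaling 0.090, 0.45 and 0.026. Leaving out the other rats in turn gave values as low as 0.44 for rno-miR-149-3p (without sham rat 1) and 0.25 for rno-miR-3473 (without PostC rat 2). rno-miR-762 was above sham without overlap, as were 18 miRNAs (3.38%), although the spots of PostC rat 3 were under the limit. limma called 0 of 532 (0%), with 14 at an unadjusted p under 0.05, and the methods' t-test called 0 after adjustment. The direction for rno-miR-6215 turned without PostC rat 3, and that for rno-miR-149-5p with median scaling. The core minus peri difference in PostC rats less that in sham rats was 2.57 for rno-miR-149-3p (standard error 0.90), 2.61 for rno-miR-6215 (1.12), 1.79 for rno-miR-762 (0.85) and 1.37 for rno-miR-3473 (1.12), again given without a test of the 4. In limma 0 of 532 miRNAs (0%) passed for this difference, with 56 at an unadjusted p under 0.05.

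PostC and tMCAO core arrays overlapped for all 5 miRNAs. The PostC minus tMCAO difference was -0.07 for rno-miR-149-3p, -0.24 for rno-miR-762, -0.77 for rno-miR-3473, -0.56 for rno-miR-6215 and -0.46 for rno-miR-149-5p, given without a test since the tMCAO arrays chose the miRNAs. No direction is given for the first 4, since without PostC rat 2 the differences were 0.47, 0.13, 0.045 and 0.099 in the same order. The sign also turned with the GC trend removed and without tMCAO rat 3 for rno-miR-149-3p (0.25 and 0.0016) and rno-miR-762 (0.076 and 0.23), and for rno-miR-149-3p with quantile normalization (0.14), with median scaling (0.062) and without tMCAO rat 2 (0.095).

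The 4 miRNAs followed each other from array to array. Pearson's r of the normalized log2 intensity over the 18 arrays was 0.97 between rno-miR-149-3p and rno-miR-762, 0.95 between rno-miR-3473 and rno-miR-6215, and 0.87 to 0.92 for the other pairs. Within the 6 PostC arrays alone it was 0.93 to 0.99. After the mean of each group was subtracted it was 0.51 to 0.78. These values are descriptions, since all points share the same 18 arrays and their normalization and the pooled r includes the gap between groups. rno-miR-149-5p had r = -0.26 with the 3p arm.

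Outside this set, miR-1224 was the nearest miRNA of 3 of the 4 and the second nearest of rno-miR-762, with r = 0.89 to rno-miR-149-3p, 0.88 to rno-miR-762, 0.90 to rno-miR-3473 and 0.90 to rno-miR-6215. It is a mirtron, a miRNA whose precursor is a spliced intron, and its target has a GC content of 66.7%. Its log2 difference was 2.58 for tMCAO minus sham in core and 1.63 for PostC core minus peri. Among the nearest 3 of rno-miR-762 was also miR-155-5p (r = 0.89), a miRNA of activated leukocytes and microglia, although it was detected on only 3 arrays. The levels most like those of rno-miR-149-5p were those of miR-410-3p (r = 0.69), miR-344a-3p (r = 0.66) and miR-99a-5p (r = 0.60), of which the first is transcribed from the imprinted Dlk1-Dio3 cluster.

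**Figure D3:**
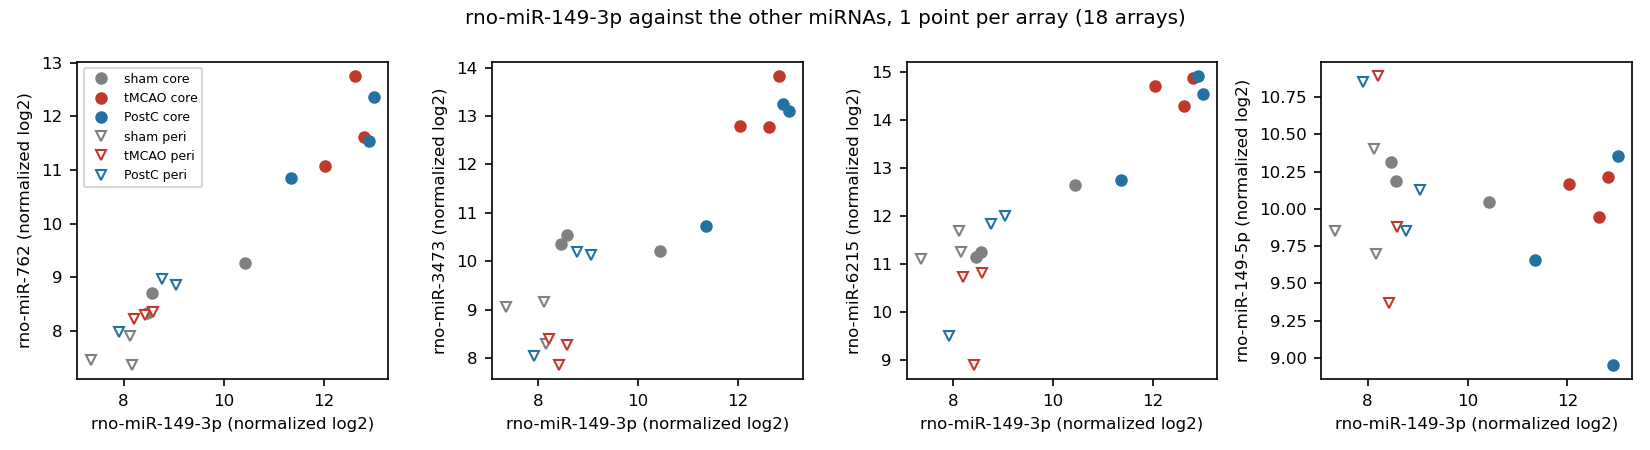
Normalized log2 intensity of rno-miR-149-3p on the x axis against each of the other miRNAs on the y axis, with 1 point for each of the 18 arrays, filled circles for core and open triangles for peri. The first 3 panels rise together (r = 0.91 to 0.97), whereas rno-miR-149-5p does not (r = -0.26).

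The 4 miRNAs were next set beside miRNAs of like GC content, since differences over the whole array moved with this property. Over the 532 miRNAs the tMCAO minus sham difference in core correlated with GC content at r = 0.40, and among the other miRNAs its median ran from -0.66 for the 95 under 40% GC to 0.31 for the 13 with 70% or more. The PostC core minus peri difference correlated with GC content at r = 0.25. Only 1 other tested miRNA lay within 5 percentage points of the 83.3% of rno-miR-149-3p and rno-miR-762, namely miR-328a-5p at 78.9%. Its difference was -1.23 for tMCAO minus sham in core and 0.88 for PostC core minus peri, that is, below both. Within 10 points there were 7 for each of the pair, counting the other of the pair. Their median was 0.31 for tMCAO minus sham in core and 0.81 for PostC core minus peri. None could exceed rno-miR-149-3p in either difference, since it held place 1 of all 532 in both.

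rno-miR-3473 and rno-miR-6215 allowed a denser comparison. Of the 178 miRNAs within 5 points of rno-miR-3473, the median tMCAO minus sham difference in core was 0.16. The only one above rno-miR-3473 was rno-miR-6215, which follows from its place 4 of 532 in the values that chose it. Apart from these 2, the highest were miR-3084a-3p with 2.12, miR-664-2-5p with 1.97 and miR-674-3p with 1.84. In the PostC core minus peri difference the same 178 had a median of 0.11. Again only rno-miR-6215 lay above rno-miR-3473, as follows from its place 4 of 532 there. The 97 miRNAs of like GC content to rno-miR-149-5p had a median of 0.16 for tMCAO minus sham in core, with miR-486, miR-764-5p and miR-207 highest at 1.91, 1.59 and 1.55, and 64 of them lay above its -0.07. When the linear trend with GC content was removed from each array, the tMCAO minus sham difference in core was 2.15 for rno-miR-149-3p and 1.87 for rno-miR-762, compared with 3.33 and 3.05 before.

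**Figure D4:**
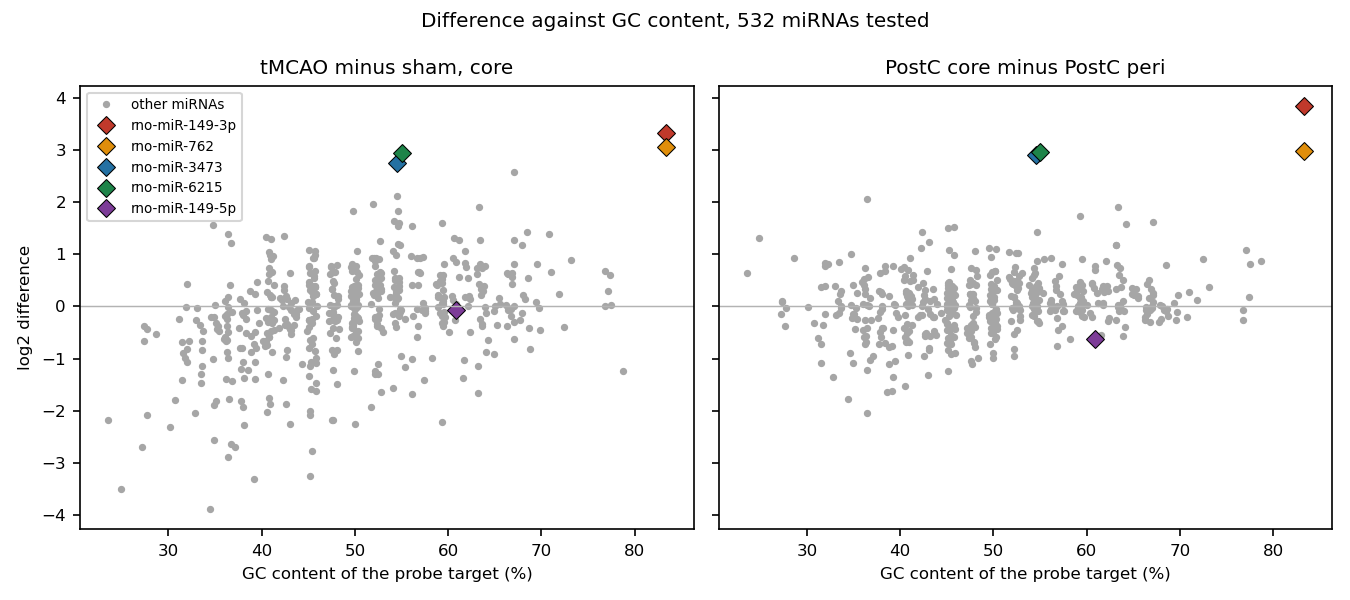
Log2 difference (y axis) against the GC content of the probe target in percent (x axis, grey points jittered sideways) for the 532 miRNAs tested, for tMCAO minus sham in core on the left, the values that chose the miRNAs, and PostC core minus peri on the right. rno-miR-149-3p and rno-miR-762 lie at 83.3% with few neighbours, whereas rno-miR-3473 and rno-miR-6215 lie above a dense column of miRNAs of like GC content.

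The letters shared by the targets were also looked up in the other miRNAs tested. The 6 other tested miRNAs with UAGGG, miR-135a-3p, miR-155-5p, miR-324-5p, miR-345-3p, miR-3588 and miR-652-3p, had a median PostC core minus peri difference of -0.10 and a highest value of 1.01, compared with a median of 0.05 for the 521 without it. A run of GGG was present in all 4 targets and in 24.0% of the array, and the 124 other tested miRNAs that held it had a median of 0.11, compared with 0.04 for the 403 without. The highest of these 124, miR-208a-5p, had 2.84, next to the 2.91 of rno-miR-3473, and it lay above rno-miR-6215 and rno-miR-3473 for PostC minus sham in core, at 2.79.

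Marker lists of other cells were described beside these values, with no test of a list. Of the 6 leukocyte miRNAs listed, 5 were tested, of which 4 (miR-155-5p, miR-223-3p, miR-146a-5p and miR-150-5p) had a higher mean in tMCAO than in sham core and 1 (miR-142-5p) a lower one, with a median difference of 1.35 compared with -0.05 over all miRNAs. The summed level of the 6 was 3297 to 4031 in sham core, 7592 to 12363 in tMCAO core, 5968 to 8372 in PostC core and 3073 to 4713 in the 9 peri arrays. This sum mostly follows the brightest, miR-150-5p, with a mean log2 level of 11.31 in sham core and 12.87 in tMCAO core. It is therefore not a total of leukocyte RNA. In PostC rats all 5 had a higher mean in core than in peri, with a median difference of 0.87. miR-223-3p, a marker of neutrophils and monocytes, was detected on 4 arrays, miR-155-5p on 3, miR-142-5p on 5 and miR-142-3p on 1. The part of leukocyte RNA in the levels of the 4 miRNAs was not tested.

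Of the other lists, the summed level of the 2 endothelial arms of miR-126a was 8342 to 15619 in sham core, 3747 to 7364 in tMCAO core and 4225 to 7436 in PostC core, so that both groups lay below sham without overlap. The 4 red blood cell miRNAs summed to 2508 to 4360 in sham core and 3045 to 4263 in tMCAO core. In PostC core they summed to 1575 to 1868, below sham without overlap, and in PostC peri to 1041 to 6719. The sum follows the brighter miR-451-5p (PostC minus sham in core -1.22), whereas miR-486 went the other way (1.00). Both arms of miR-144 were detected on no array. The 3 muscle and heart miRNAs summed to 528 to 670.1 in sham core and 452 to 707 in tMCAO core, and to 641 to 1344 in PostC core. The brain list had 2 of 4 higher and 2 of 4 lower in tMCAO core, with miR-9a-5p lower by a log2 difference of -1.89. For none of these lists was the part in the result tested.

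A set of control spots was higher in tMCAO core too, in part depending on the scale. The array carries 6 overlapping probes to 5S ribosomal RNA, an RNA of the large ribosomal subunit that is not a miRNA. Adjacent probes are shown here because they read overlapping stretches of 1 molecule, with the shared 12 bases in capitals.
rno-5S-b2: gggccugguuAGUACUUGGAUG
rno-5S-b3: AGUACUUGGAUGggagaccgcc
The raw spot median of rno-5S-b2 was 16423, 13258 and 11918 units in sham core, 25147, 25194 and 27873 in tMCAO core and 19530, 9995 and 19897 in PostC core. In peri it was 7348, 12482 and 16624 in sham, 5666, 6582 and 5443 in tMCAO and 6755, 7294 and 10937 in PostC. On this raw scale the tMCAO arrays were above sham in core and below sham in peri, with no overlap, and PostC rat 2 was the lowest of its group in core. On the normalized scale used for the miRNAs rno-5S-b2 was 0.86 above sham in tMCAO core without overlap, whereas in peri the difference was -0.080 and the groups overlapped. rno-5S-b1 and rno-5S-b5 were likewise above sham in tMCAO core without overlap, by 1.21 and 0.61 on the raw log2 scale, compared with 0.92 for rno-5S-b2. After normalization rno-5S-b1 was 0.54 above sham with overlapping groups, and rno-5S-b5 0.44 above without overlap. rno-5S-b3 showed a raw difference of 0.00012 in core, and it overlapped between sham and tMCAO in core and in peri, as did rno-5S-b4 and rno-5S-b6. Over the 18 arrays the normalized level of rno-5S-b2 correlated with that of the 4 miRNAs at r = 0.62 to 0.67, and with that of rno-miR-149-5p at -0.09, whereas rno-5S-b3 gave -0.27 to -0.22 with the 4. On the raw log2 scale these ranges were 0.67 to 0.77 for rno-5S-b2 and 0.19 to 0.35 for rno-5S-b3. The longest run of letters that any of the 4 targets shared with the 69 bases covered by these probes was the 7 bases of GGUGCUG, in rno-miR-149-3p, and 5 bases for the other 3, compared with a median of 5 over the array. Of the 761 targets, 9 shared a longer run than rno-miR-149-3p, and 163 a longer run than each of the other 3. The part of ribosomal RNA or its fragments in the signal of the 4 miRNAs was not tested.

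**Figure D5:**
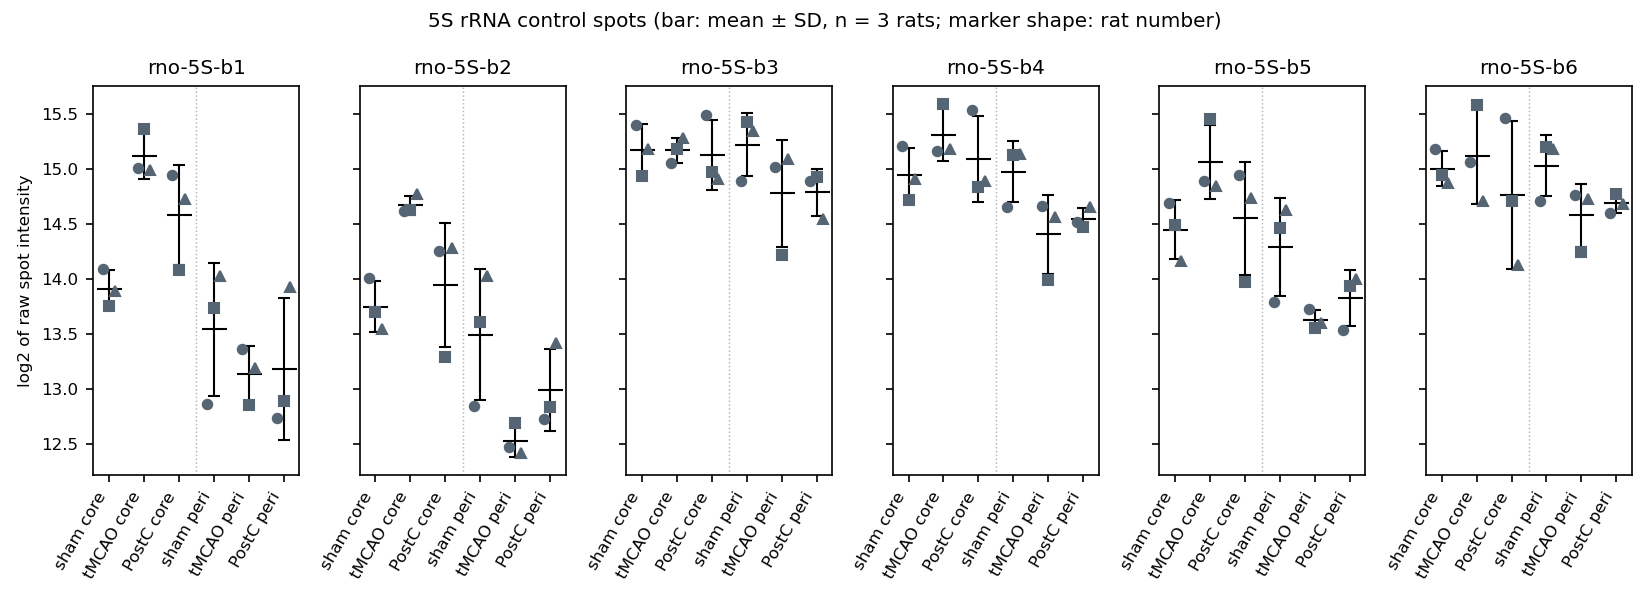
Log2 of the raw spot median of the 6 probes to 5S ribosomal RNA on each of the 18 arrays, with the mean ± SD of each group (n = 3 rats) and marker shapes for the rat number. rno-5S-b1, rno-5S-b2 and rno-5S-b5 are highest in tMCAO core, whereas rno-5S-b3, rno-5S-b4 and rno-5S-b6 overlap between sham and tMCAO core.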

How the data were processed

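RNA was labelled with Cy5 and hybridised to single-colour µParaflo arrays. The deposited spot value is a median pixel intensity, to which the authors had applied neither background subtraction nor normalization, and a further table holds background-subtracted, locally regressed intensities on a linear scale. Since the files give no local background, normexp (offset 50) was fitted on all 3968 spots of an array. The log2 values computed from the deposited intensities were normalized by cyclic loess with control spots at weight 0, and the 4 spots of each of 761 miRNAs were averaged. The detection limit lay 3 scaled median absolute deviations above the median of the array's 612 empty spots, and the 532 miRNAs detected on at least 3 arrays were tested with limma 3.58.1 in R 4.3.3 (variance trend, Benjamini-Hochberg at 0.05). Because the normalization assumes balanced rises and falls, each difference is relative to the other miRNAs. The 9 core arrays, the 9 peri arrays or the 9 core minus peri differences shared 1 estimate of the spread, and the scripts were tested on simulated data. The number of arrays limits the precision, and array intensities carry no counting error; the median miRNA spot was 49.1 to 260.8 units.

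The labels number 3 rats in each group, which were taken as the replicates. At 3 rats a group no exact permutation test reaches 0.05. The miRNAs and the marker lists were chosen with earlier results of these data known, so nothing in the contrasts that use tMCAO or sham arrays is support. Only PostC core minus peri is read as a test of the 4. Named besides the 5 miRNAs are the 3 most correlated with each, those sharing a seed, the marker lists, and the 3 highest of like GC content (within 5 points). miR-1224 at place 5 falls under this rule, and the miRNAs with UAGGG and miR-208a-5p were named after their values were seen. Target sequences come from the array files; no genome was used, so no positions are given. All columns of the deposited table were mapped to a sample. The deviations of same-numbered rats of different groups correlated at r = -0.45 to 0.44 (over 0.1 in 2 of 18 pairs), so the numbers were not used to pair the groups. With 3 rats a group this check cannot exclude a processing step shared by number. Alternatives were plain subtraction (floor 1), quantile normalization, median scaling, the deposited values, other filters, a detection limit from the dimmest miRNA spots, removal of the GC trend, the methods' t-test, no variance trend, only the groups compared, a replicate block, both regions in 1 fit, a GC window of 10 points, and leaving out each rat. Figures used Python 3.11.15 and matplotlib 3.10.9.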

Additional observations from a re-analysis of the deposited data

Results flagged for a closer look

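For rno-miR-6215 the tMCAO minus sham difference had opposite signs in the 2 regions. All 3 tMCAO rats were above the sham mean in core (log2 difference 2.94) and all 3 below it in peri (-1.19, or -0.57 without tMCAO rat 1). Of all miRNAs tested 16.7% were above sham in core and 16.0% below sham in peri without overlap. Nothing is read from these counts, since a rise in core and not in peri was the ground of the choice. rno-miR-3473 had the same signs, 2.76 in core and -0.66 in peri, but none of its tMCAO peri spots exceeded the detection limit, so the size of its peri value is not a measurement, and it was -3.52 with plain subtraction, -1.81 with median scaling and -1.66 with the deposited intensities. For both the difference between regions was not tested, as the tMCAO arrays chose these miRNAs.

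The control probes to 5S ribosomal RNA took no part in the comparisons, and the raw spots of 3 of the 6 were brighter in tMCAO than in sham core without overlap. The raw log2 difference was 1.21 for rno-5S-b1, 0.92 for rno-5S-b2 and 0.61 for rno-5S-b5. After normalization it was 0.54, 0.86 and 0.44, with overlapping groups for rno-5S-b1.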

How the results depend on the processing

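In the PostC core minus peri difference no result turned its sign, but calls were gained. Counts of miRNAs called rose from 0 to 1 with plain subtraction, median scaling, the deposited intensities and the methods' t-test, to 3 without the variance trend and to 6 with both regions in 1 fit. rno-miR-149-3p passed with median scaling (4.01) and without the trend (3.84), and rno-miR-762 without the trend (2.98). Plain subtraction moved rno-miR-149-3p, rno-miR-762 and rno-miR-3473 to 5.24, 4.30 and 3.77. The adjusted p of rno-miR-149-3p rose from 0.0994 to 0.970 in limma on the PostC rats alone and to 0.993 in the methods' t-test. In 1 fit over both regions, 3.84, 2.98, 2.91 (rno-miR-3473) and 2.96 (rno-miR-6215) passed. Leaving out each rat gave 0 to 18 calls and 3.22 to 4.47 for rno-miR-149-3p, 2.27 to 3.53 for rno-miR-762, 1.83 to 4.09 for rno-miR-3473 and 1.92 to 3.97 for rno-miR-6215, with the calls gained without PostC rat 2 and the lowest values without PostC rat 3. In PostC minus sham in core, where calls of the 4 are no support as the sham arrays helped to choose them, the count rose to 2 with plain subtraction, 6 with quantile normalization, 3 among miRNAs detected on all arrays, 1 without the trend and 32 in 1 fit over both regions. The difference of rno-miR-149-3p was 4.09, 3.36 and 3.27 with plain subtraction, quantile normalization and 1 fit. That of rno-miR-762 was 2.87 and 2.81 with the last 2. That of rno-miR-6215 was 2.45 (quantile) and 2.39 (detected on all arrays, and 1 fit). No call of the 4 is read from these settings. rno-miR-149-3p and rno-miR-762 fell to 2.40 and 1.95 without the GC trend, and rno-miR-762 was 3.79 with plain subtraction. Leaving out each rat gave 0 to 8 calls (8 without PostC rat 2, 1 without sham rat 2 and 2 without sham rat 3) and 2.92 to 3.91, 2.42 to 3.18, 1.54 to 2.80 and 1.96 to 3.04 for rno-miR-149-3p, rno-miR-762, rno-miR-3473 and rno-miR-6215. The replicate number as a block changed no call, with 0 miRNAs called in either region, and no such block applies to differences within a rat. For tMCAO minus sham in core, rno-miR-149-3p, rno-miR-762 and rno-miR-3473 moved to 4.16, 4.04 and 3.37 with plain subtraction, and rno-miR-149-3p and rno-miR-762 to 2.15 and 1.87 without the GC trend. Leaving out each rat gave 2.98 to 3.97, 2.58 to 3.42, 2.41 to 2.93 and 2.68 to 3.43 for rno-miR-149-3p, rno-miR-762, rno-miR-3473 and rno-miR-6215. In peri the PostC minus sham sign turned for rno-miR-149-5p with median scaling (-0.32) and for rno-miR-6215 without PostC rat 3 (0.58; -0.68 to 0.58 over all rats left out). The tMCAO minus sham sign in peri turned for rno-miR-149-3p with plain subtraction (-0.27), median scaling (-0.67) and the deposited intensities (-0.019), and for rno-miR-762 with the first 2 (-0.36 and -0.44). Median scaling moved the median of all miRNAs by -0.42 there, and less that median the values of the pair were -0.25 and -0.01. In the same contrast rno-miR-3473 moved from -0.66 to -3.52, -1.81 and -1.66 with plain subtraction, median scaling and the deposited intensities. The deposited intensities moved the median by -0.34 in core. Signs of values near 0 turned 20 more times, of which 9 were of rno-miR-149-5p for tMCAO minus sham and 11 of PostC minus tMCAO in core, where leaving out PostC rat 2 turned all 4 risen miRNAs (0.045 to 0.47). The filter for detection on all 18 arrays leaves 141 miRNAs, rno-miR-149-5p and rno-miR-6215 among them. The cause of these changes was not tested. Signal over background limits the peri values of rno-miR-149-3p, rno-miR-762 and rno-miR-3473.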
